A study of Mus musculus with 4 samples.

Results

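The 9 genes described here route the amino acid arginine, and they were read in single cells of mouse liver tumours induced by c-MYC and AKT transgenes, with KLF2 added in some of the animals. They are the arginases Arg1 and Arg2, the inducible nitric oxide synthase Nos2, the urea cycle enzymes Cps1, Otc, Ass1 and Asl, the cationic amino acid transporter Slc7a2, and ornithine decarboxylase Odc1. The genes were chosen by name for their place in arginine metabolism, with earlier results of these data known. All 9 are among the 28889 gene symbols listed by the libraries. Levels were read in macrophage-like, neutrophil-like and hepatocyte-lineage-like cells and in the tumour/parenchymal compartment, with other classes for reference.

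The animals were male C57BL/6 mice aged 18 weeks, 10 weeks after hydrodynamic tail vein injection, which drives plasmid DNA into hepatocytes. All mice received c-MYC and AKT transgenes under the EF1α promoter together with SB100X, the transposase by which plasmid cargo enters chromosomes. The KLF2 mice also received a KLF2 transgene under that promoter, and the vector mice an empty plasmid in its place. Each of the 4 libraries came from a mouse of its own, and 3 are used: vector replicate 2 and KLF2 replicates 1 and 2. No matrix of vector replicate 1 was analysed here, so every comparison sets 1 vector library against 2 KLF2 libraries. Hosts had an intact immune system, and only the liver cells that take up the plasmids carry the transgenes.

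Arginine lies at a branch point. In hepatocytes the urea cycle detoxifies ammonia: CPS1 and OTC make carbamoyl phosphate and citrulline in mitochondria, ASS1 and ASL convert citrulline to arginine in the cytosol, and ARG1 splits arginine into urea and ornithine. Macrophages and neutrophils take up arginine through transporters such as SLC7A2. They spend it through NOS2, which makes nitric oxide and citrulline, or through arginases, and ODC1 turns the ornithine into polyamines. Arg1 in macrophages is a familiar sign of alternative activation and of tumour-associated myeloid cells, while Nos2 is linked to inflammatory activation.

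The libraries differed in quality and makeup. The vector library held 45594544 UMIs (unique molecular identifiers, 1 for each captured RNA molecule) in 12852 cell barcodes, KLF2 replicate 1 held 95374838 in 6282, and KLF2 replicate 2 held 125458473 in 11240. After filtering, 8403, 6209 and 11103 cells were kept, with a median mitochondrial share of 11.9%, 0.223% and 0.345%. Pairs of libraries shared 550 to 1146 barcode names, of which 1 had the same UMI total. The part of these library differences in the results was not tested. Klf2 itself stood at 149 CPM (counts scaled to a total of 1000000 for the class) in the vector's tumour/parenchymal compartment and at 333 and 395 CPM in those of the KLF2 libraries, where the transgene and the mouse gene cannot be told apart. That difference did not pass the test (edgeR log2 fold change 0.58, adjusted p = 0.200), while in macrophage-like cells Klf2 rose from 143 CPM to 425 and 575 CPM (log2 fold change 1.62, adjusted p = 0.0143).

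Class names come from marker genes. Macrophage-like cells numbered 284 in the vector library and 443 and 1079 in KLF2 replicates 1 and 2, and all 12 macrophage markers (C1qa, Adgre1, Csf1r and others) were found in each. Neutrophil-like cells numbered 73, 57 and 143, with 11, 12 and 12 of the 12 neutrophil markers found (Camp was at 0 in the vector library). Hepatocyte-lineage-like cells numbered 638, 20 and 57 and held all 11 hepatocyte markers in each library. The tumour/parenchymal compartment held 641, 4694 and 6428 cells. In the vector library 638 of those 641 were hepatocyte-lineage-like, and the 11 hepatocyte markers summed to 7074 CPM there against 71.0 and 96.7 CPM in KLF2. KLF2 and vector can therefore not be told apart from cell type in that compartment. Scrublet, the doublet caller that was run, called 0 cells, and doublets were not removed from the values below.

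Macrophage-like cells carried the largest change of the 9 genes. Arg1 stood at 4.58 CPM in the vector library, from 10 UMIs, and at 5349 and 1256 CPM in KLF2 replicates 1 and 2, from 31705 and 9892 UMIs. The groups lay far apart, and the KLF2 libraries differed from each other by several fold. Pooled over the KLF2 libraries, Arg1 was 658-fold higher (exact 95% interval 358 to 1372, counting error only), and the edgeR quasi-likelihood test gave a log2 fold change of 9.25 (SE 1.06, adjusted p = 0.000827).

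Slc7a2, which imports arginine, rose with it, from 5.96 CPM in the vector library to 108 and 37.6 CPM (log2 fold change 3.38, SE 0.68, adjusted p = 0.0117 by edgeR). With cells thinned to 1000 UMIs the Slc7a2 call was lost (adjusted p = 0.0720). Mesenchymal-like cells also held more Slc7a2 in KLF2 replicates 1 and 2, at 39.1 and 94.3 CPM against 10.1 CPM in the vector library, where no test was made. Arg2, the mitochondrial arginase, was found at 1.83 CPM in the vector library and at 12.1 and 11.6 CPM in the KLF2 libraries (log2 fold change 2.48, SE 0.55, adjusted p = 0.0167 by edgeR). In both genes each KLF2 library lay above the vector library. The 4 vector UMIs of Arg2 leave its fold imprecise: 6.44-fold, with an exact 95% interval of 2.47 to 23.9. With DESeq2 the Arg2 difference missed the threshold (adjusted p = 0.164).

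Ass1, which rebuilds arginine from citrulline, went the other way: 62.8 CPM in the vector library against 37.6 and 23.6 CPM in the KLF2 libraries (log2 fold change -1.25, SE 0.30, adjusted p = 0.0237 by edgeR). The call was lost under 4 of 11 other settings, among them DESeq2 (adjusted p = 0.147) and cells with at least 500 genes (adjusted p = 0.134). Its partner Asl stood at 24.7, 19.6 and 20.3 CPM and did not pass (log2 fold change -0.51, SE 0.29, adjusted p = 0.260). Nos2 stood at 4.58 CPM in the vector library and at 22.3 and 6.22 CPM in the KLF2 libraries, a difference below the spread between the KLF2 libraries (log2 fold change 1.39, SE 0.78, adjusted p = 0.248 by edgeR). Without a filter on low counts Nos2 passed, with an adjusted p of 0.0284. Odc1 stood at 52.2, 53.5 and 78.1 CPM (adjusted p = 0.791).

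Of the 9 genes, 7 had enough counts to be tested in macrophage-like cells, and 3 were higher and 1 lower in KLF2. Over all 13187 genes tested there, 16.9% were called (10.8% higher and 6.1% lower). The median log2 fold change of the 7 was 1.39, beside 0.15 over all genes. Cps1 and Otc, the mitochondrial urea cycle enzymes, gave at most 3 UMIs in any library of these cells. The macrophage-like, monocyte-like and dendritic-like cells together with their unnamed myeloid relatives gave the same calls for Arg1, Slc7a2, Arg2 and Ass1, with log2 fold changes of 9.47, 3.88, 3.06 and -1.22 and 19.6% of genes called (12.1% higher and 7.53% lower).

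**Figure D1:**
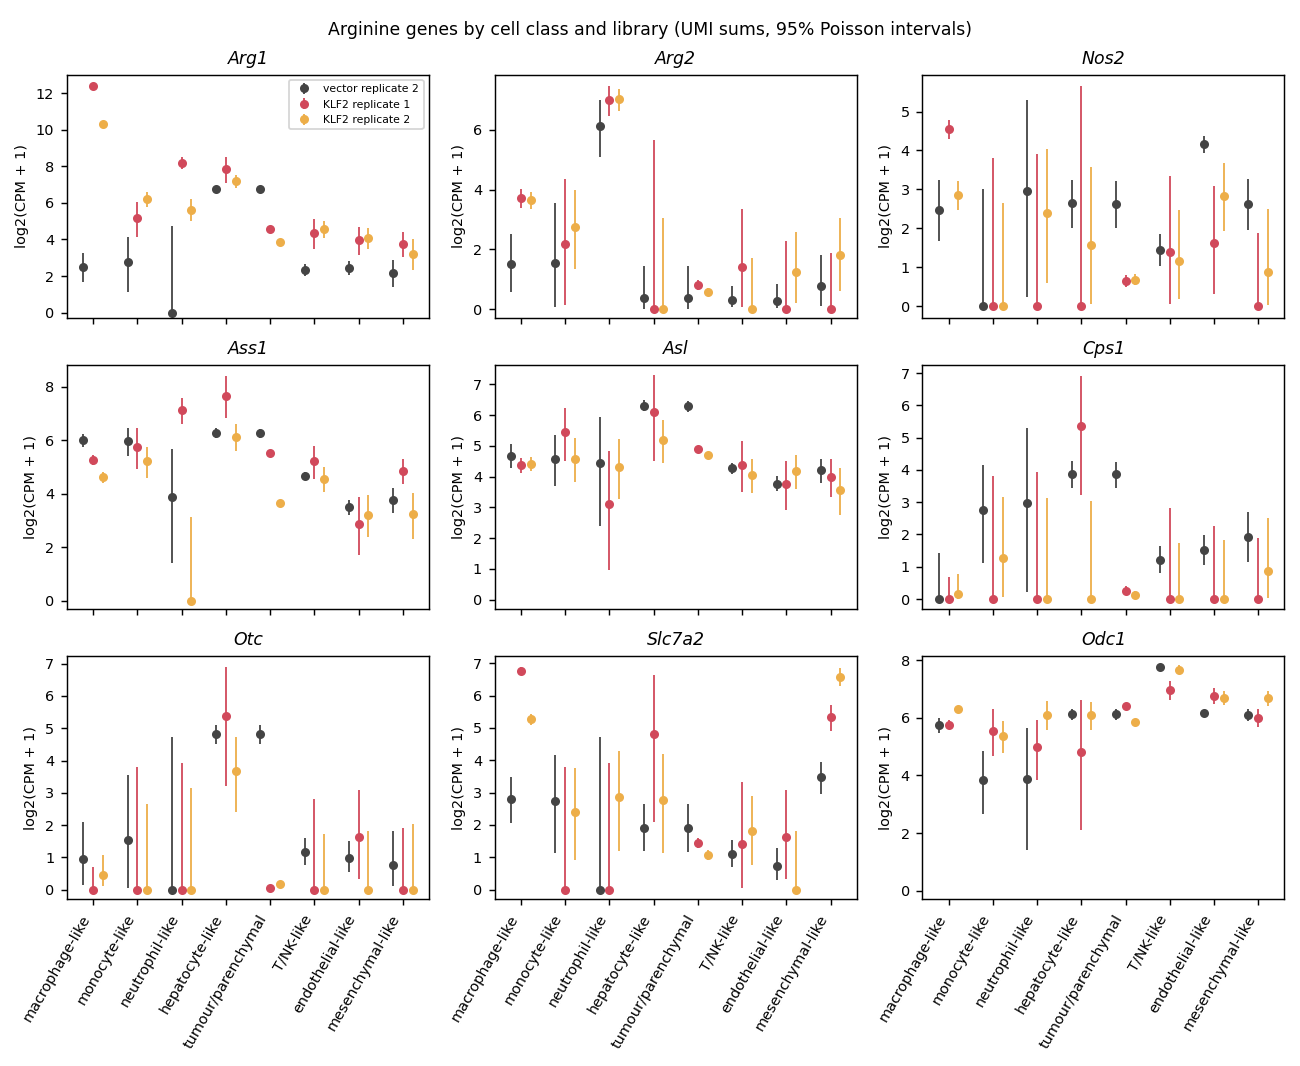
Level of each of the 9 genes by cell class, as log2(CPM + 1) of the UMIs summed per library, with exact 95% Poisson intervals. Grey, red and yellow mark vector replicate 2, KLF2 replicate 1 and KLF2 replicate 2. Arg1 in macrophage-like cells separates 4.58 CPM in the vector library from 5349 and 1256 CPM in the KLF2 libraries, and Arg2 is highest in neutrophil-like cells.

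Cells were also thinned to 1000 UMIs each, so that depth could not set the share of cells with a UMI. Cells below that depth were left out, 2 macrophage-like and 70 T and NK cells of the vector library and none of these classes in the KLF2 libraries. Of the vector library's macrophage-like cells, 0.709% held an Arg1 UMI (exact 95% interval 0.0860 to 2.54%), against 55.3% (50.5 to 59.998%) in KLF2 replicate 1 and 19.1% (16.8 to 21.6%) in KLF2 replicate 2. Unthinned shares were 2.82%, 65.2% and 29.9%, at median depths of 5846.5, 10620 and 5586 UMIs. In T and NK cells, which should lack Arg1, the thinned shares were 0.443%, 1.05% and 1.52%, at unthinned median depths of 3165, 5221 and 3335.5 UMIs. The vector macrophages thus lay near that background and the KLF2 macrophages well above it. For Slc7a2 the thinned shares in macrophage-like cells were 0.355%, 6.55% and 2.13% (unthinned 3.52%, 27.1% and 9.36%).

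Arg1 was spread unevenly among the macrophages. In KLF2 replicate 1 the sub-cluster led by Saa3, Prg4 and Slpi (117 cells) held 10215 CPM of Arg1, and 94.9% of its thinned cells had an Arg1 UMI. The matching sub-cluster of KLF2 replicate 2, also led by Saa3, Slpi and Prg4 (44 cells), held 5445 CPM, with 93.2% of cells. Saa3 encodes an acute-phase apolipoprotein. Sub-clusters led by Mmp12, Spp1 and Gpnmb, genes of lipid-handling and scar-associated macrophages, held 6362 CPM in KLF2 replicate 1 (81 cells) and 2804 CPM in KLF2 replicate 2 (204 cells). A further 79 cells of KLF2 replicate 1, led by Olfr655, Sgms2 and Rgs5, held 5105 CPM.

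Other KLF2 macrophages held little. The Kupffer-like sub-clusters of KLF2 were led by Clec4f and Cd5l, genes of the liver's resident macrophages. They held 18.0 CPM of Arg1 in KLF2 replicate 1 (29 cells) and 19.96 CPM in KLF2 replicate 2 (63 cells). The vector library's 139 cells led by the same 2 genes held 8.22 CPM. Those cells are not closely matched, with 178 CPM of Clec4f against 1890 and 1610 CPM in KLF2 replicates 1 and 2. The KLF2 values lay at the T and NK level of 19.7 and 22.5 CPM. Sub-clusters led by Ms4a7 and H2-Eb1, by Mcpt2 and H2-Eb1, by Ifit3 and Isg15 or by Gpx5 and Tmem119 held 50.9 to 87.6 CPM. Histone- and Top2a-led dividing macrophages held 492 CPM in KLF2 replicate 1 and 168 CPM in KLF2 replicate 2, where 1 cell gave 72.1% of the UMIs.

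The vector library's macrophages lay in other sub-clusters than most KLF2 macrophages: 139 of 284 were led by Cd5l and Clec4f and 130 by S100a9 and C1qb. Its 15 cells led by Mmp12 and Gpnmb are the nearest to the KLF2 sub-clusters of those genes. They gave 0 Arg1 UMIs among 310143, where 3 UMIs would be 9.67 CPM and the exact 95% upper limit is 11.9 CPM, against 6362 and 2804 CPM in the KLF2 sub-clusters led by the same genes. No test over samples was made for single sub-clusters, which were drawn in each library separately.

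**Figure D2:**
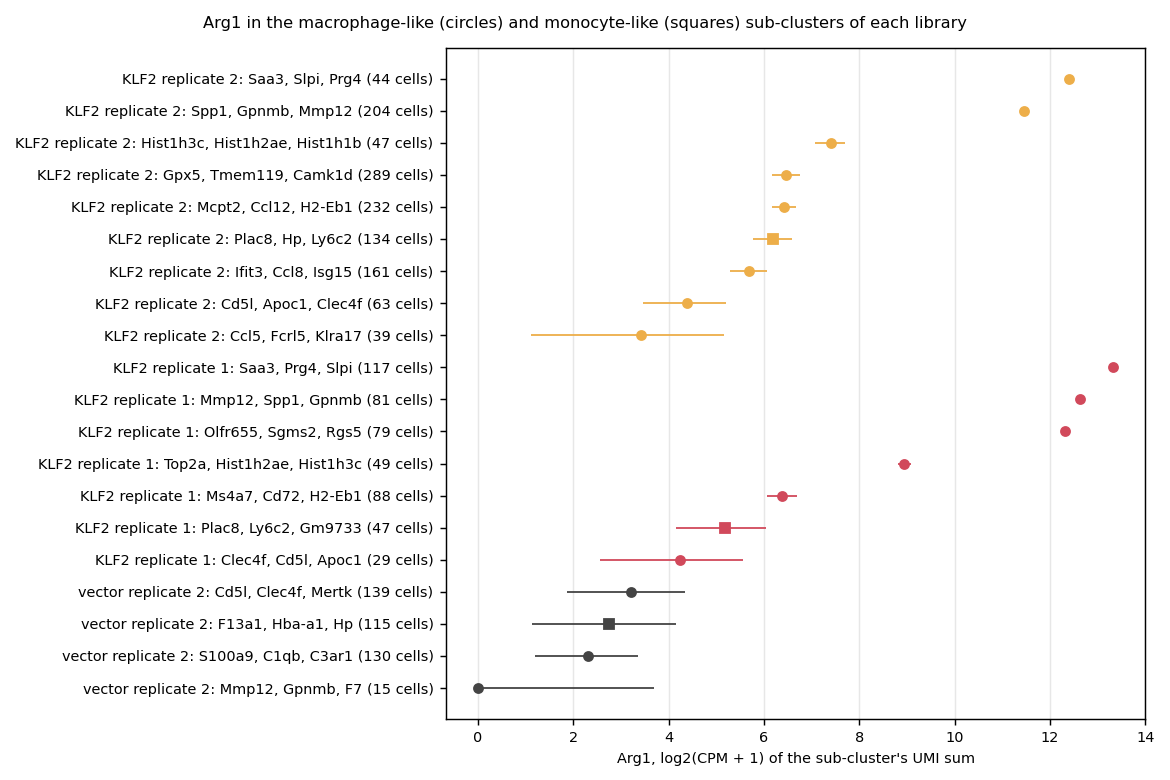
Arg1 level of each macrophage-like (circle) and monocyte-like (square) sub-cluster, as log2(CPM + 1) with exact 95% Poisson intervals, named by library, its 3 leading genes and its number of cells. The Saa3-led and Spp1- or Mmp12-led sub-clusters of both KLF2 libraries stand at 2804 CPM or more, while the vector sub-clusters stand at 8.22 CPM or less.

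The other arginine genes were also uneven among these cells. Slc7a2 stood at 212 and 80.2 CPM in the Saa3-led sub-clusters of KLF2 replicates 1 and 2, and at 139.7 and 93.1 CPM in those led by Spp1, Mmp12 and Gpnmb. In replicate 2 the Saa3-led sub-cluster was thus the highest in Arg1 and the Spp1-led one in Slc7a2. The Olfr655-led sub-cluster, with its 5105 CPM of Arg1, held 26.3 CPM of Slc7a2. In thinned macrophage-like cells of KLF2 replicate 1, 10.2% of the 245 cells with an Arg1 UMI also held Slc7a2, against 2.02% of the 198 without. In KLF2 replicate 2 the shares were 7.28% of 206 and 0.916% of 873. These cells are not replicates, and the shares describe their libraries.

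Nos2 was highest in the Spp1-, Mmp12- and Gpnmb-led sub-clusters, which also held much Arg1, with 69.1 CPM in KLF2 replicate 1 and 20.4 CPM in KLF2 replicate 2. After thinning, Nos2 was found in 5 of 245 cells with Arg1 and 0 of 198 without in KLF2 replicate 1, and in 5 of 206 against 1 of 873 in KLF2 replicate 2. Arg2 stood at 31.8 and 17.0 CPM in the sub-clusters led by Spp1, and at 18.0 and 45.4 CPM in the Kupffer-like sub-clusters of KLF2. The vector library's 139 cells led by Cd5l and Clec4f, which held less Clec4f than those of KLF2, gave no Arg2.

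Monocyte-like cells, the blood-derived precursors, held little Arg1: 5.73 CPM in the vector library, 35.2 CPM in KLF2 replicate 1 and 71.9 CPM in KLF2 replicate 2, where 31 of 50 UMIs came from 1 cell. Nos2 was at 0 UMIs in these cells of all 3 libraries. A leukocyte cluster without a name, led by Mcpt2, Zeb2 and Lrmda, held 1113 and 198 CPM of Arg1 and 136 and 50.6 CPM of Slc7a2 in KLF2 replicates 1 and 2 (41 and 231 cells). The vector library had 0 cells in it. The unnamed leukocytes of that library lay in other clusters, 1494 cells led by Igkc and 120 led by Ccl5 and Fabp4, so no comparison was made.

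Neutrophil-like cells were marked by Arg2 rather than Arg1. Arg2 stood at 68.5 CPM in the vector library and at 126 and 129 CPM in the KLF2 libraries, against at most 1.64 CPM in T and NK cells of any library. It was the highest Arg2 level of all named classes in each library. The KLF2 neutrophils lay above the vector ones without passing the test (edgeR log2 fold change 0.47, SE 0.64, adjusted p = 0.685). In thinned cells, Arg2 was found in 5.45% of vector neutrophils, 14.0% of those of KLF2 replicate 1 and 16.8% of those of KLF2 replicate 2, and in no thinned T or NK cell. The unthinned shares were 12.3%, 36.8% and 29.4%, and 18 vector neutrophils were too shallow to thin.

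Neutrophil Arg1 rested on single cells. The class gave 0 Arg1 UMIs in the vector library, where 3 UMIs would be 20.6 CPM, and 295 and 48.7 CPM in KLF2 replicates 1 and 2. The edgeR test called it (log2 fold change 8.51, SE 1.71, adjusted p = 3.46e-05), the only call among the 4 genes tested here, with 11.2% of 4149 genes called (6.24% higher and 4.99% lower). Of the 77 and 23 UMIs, 73 and 17 came from 1 cell in each library. Without those cells the UMIs left amount to 15.3 and 12.7 CPM, below the T and NK level of 19.7 and 22.5 CPM, and Arg1 no longer had the counts to be tested. The cells in question held 20910 and 10568 UMIs, against class medians of 2744 and 1858. They gave UMIs of 7 of 12 macrophage markers (91 and 56 UMIs, class medians 0 and 1) as well as 703 and 149 UMIs of neutrophil markers.

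The remaining genes were sparse in neutrophil-like cells. Odc1 stood at 13.7 CPM in the vector library and at 30.7 and 67.7 CPM in the KLF2 libraries (adjusted p = 0.417), levels below the 123 to 215 CPM of T and NK cells. Ass1 stood at 13.7, 138 and 0 CPM (adjusted p = 0.286), and 35 of the 36 UMIs of KLF2 replicate 1 came from 1 cell. Asl stood at 20.6, 7.67 and 19.0 CPM, and Nos2 at 6.85, 0 and 4.23 CPM. Cps1 gave 1, 0 and 0 UMIs, Otc gave none in any library, and Slc7a2 gave 0, 0 and 3 UMIs. For a difference of the KLF2 effect between macrophage-like and neutrophil-like cells, edgeR called 0 of 7 genes tested, against 0.341% of 11451 genes (0.21% higher and 0.131% lower). The test cannot decide this for Arg1, whose neutrophil UMIs came mostly from 1 cell in each KLF2 library. Nor can it for Slc7a2 and Nos2, with 0 to 3 neutrophil UMIs in each library. At an unadjusted p under 0.05 edgeR gave Ass1 alone (difference -2.61, adjusted p = 0.411), whose neutrophil count in KLF2 replicate 1 came nearly all from 1 cell.

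**Figure D3:**
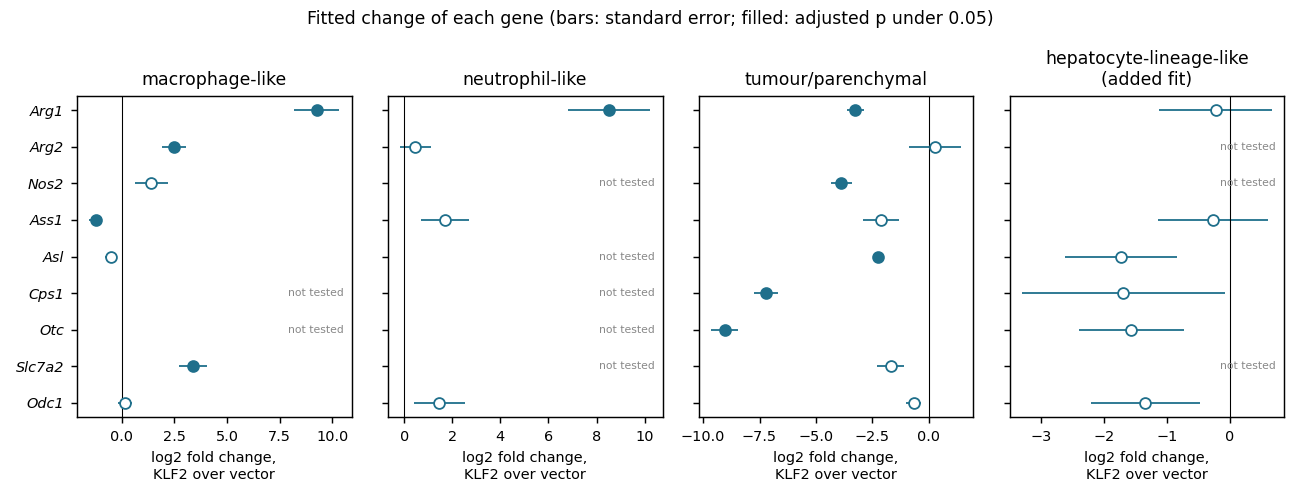
Log2 fold change of each gene, KLF2 over vector, with its standard error, by edgeR in 4 cell classes. Filled points passed an adjusted p of 0.05: Arg1, Slc7a2, Arg2 and Ass1 in macrophage-like cells, Arg1 in neutrophil-like cells, and Arg1, Asl, Cps1, Nos2 and Otc in the tumour/parenchymal compartment. The hepatocyte-lineage-like fit was added after seeing the data, and none of its 6 tested genes passed.

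In the liver compartment the urea cycle set the pattern. The tumour/parenchymal cells of the vector library, nearly all hepatocyte-lineage-like, held Otc at 27.0 CPM and Cps1 at 13.5 CPM. In KLF2 cells Otc amounted to 0.0370 and 0.122 CPM, and Cps1 to 0.197 and 0.101 CPM. Both differences passed by edgeR (Otc log2 fold change -9.05, SE 0.60, adjusted p = 0.00453, and Cps1 -7.21, SE 0.54, adjusted p = 0.00547).

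The cytosolic arm differed less. Asl measured 77.7 CPM in vector cells, compared with 28.6 and 25.2 CPM in KLF2 cells (log2 fold change -2.24, SE 0.22, adjusted p = 0.00766 by edgeR). Arg1 stood at 107 CPM against 22.9 and 13.7 CPM (log2 fold change -3.26, SE 0.37, adjusted p = 0.00979), and the KLF2 values are at the level of T and NK cells. Ass1 stood at 75.2 CPM against 44.7 and 11.4 CPM, and the gap between the KLF2 libraries kept it from passing (log2 fold change -2.14, adjusted p = 0.128). With cells thinned to 1000 UMIs, Ass1 passed at an adjusted p of 0.000522.

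Nos2 was also lower in the KLF2 compartments, at 0.567 and 0.597 CPM against 5.22 CPM (log2 fold change -3.87, SE 0.48, adjusted p = 0.0115 by edgeR). Markers of other cells moved with it: the vector compartment held 439 CPM of the 12 T and NK markers, against 14.4 and 15.1 CPM in the KLF2 ones, and 214 CPM of the 12 macrophage markers against 130.5 and 126. All 12 T and NK markers were found in each compartment, and of the macrophage markers Cd163 was at 0 in the vector one. Their part in the result was not tested. In the vector library Nos2 was highest in endothelial-like cells, at 16.9 CPM. The T and NK clusters of that library held 2.06 and 1.21 CPM of Nos2, below the 5.22 CPM of its compartment. Its macrophage-like cells also held less Nos2 than the compartment.

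Odc1, Slc7a2 and Arg2 gave no call there. Odc1 measured 68.5 CPM in vector cells, between the 84.6 and 56.4 CPM of the KLF2 libraries. Slc7a2 stood at 2.76 CPM against 1.73 and 1.09 CPM (log2 fold change -1.68, adjusted p = 0.111), and Arg2 at 0.307 CPM, from 1 UMI, against 0.740 and 0.476 CPM (adjusted p = 0.897). For Odc1 the TMM-scaled fit nevertheless gave -0.67 (adjusted p = 0.209), since its scaling factors were 0.719 for the vector library and 1.18 for both KLF2 libraries. Of the 9 genes tested in the compartment, 0 were higher and 5 lower, with 23.8% of 20232 genes called (13.2% higher and 10.6% lower). The median log2 fold change of the 9 was -2.24, beside 0.64 over all genes. That median was -0.15 in the DESeq2 fit of 27603 genes and 1.68 by edgeR without a filter on low counts, also over 27603 genes. The same 5 genes were lower by DESeq2.

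Comparing hepatocyte-lineage-like cells alone, none of the 6 genes tested passed. Otc stood at 27.2 CPM in the vector library, 40.5 CPM in KLF2 replicate 1 and 11.8 CPM in KLF2 replicate 2. Cps1 stood at 13.6, 40.5 and 0 CPM, and Asl at 78.1, 67.4 and 35.3 CPM. The vector value of Otc and of Cps1 lay between the KLF2 values, and for Asl it lay above both. The values of KLF2 replicates 1 and 2 rest on few UMIs: 3 and 6 of Otc, 3 and 0 of Cps1, and 5 and 18 of Asl.

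Arg1 in these cells stood at 107 CPM in the vector library and at 229 and 143 CPM in the KLF2 libraries, and Ass1 at 75.7, 202 and 68.7 CPM. In CPM, both KLF2 values of Arg1 thus lay above the vector value, while the TMM-scaled fit described below put Arg1 lower in KLF2. Odc1 stood at 68.9, 27.0 and 66.7 CPM, Nos2 at 5.25, 0 and 1.96 CPM and Slc7a2 at 2.78, 27.0 and 5.89 CPM, while Arg2 gave 1, 0 and 0 UMIs. The KLF2 values of Nos2 rest on 0 and 1 UMIs, and 3 UMIs would be 40.5 and 5.89 CPM there. In KLF2 replicates 1 and 2, 1 cell each gave 15 of 17 and 52 of 73 Arg1 UMIs. Those cells held 10 and 11 of the 11 hepatocyte markers, with 579 and 863 marker UMIs against class medians of 14.5 and 17. With only 20 such cells in KLF2 replicate 1, the planned test was not made. A fit of all 3 libraries, added after seeing the data, called 0 of the 6 genes tested (4.03% of 7287 genes called, 1.88% higher and 2.15% lower). The median log2 fold change of the 6 was -1.46, beside 0.02 over all genes. For Arg1, 11 alternatives of that fit gave -2.40 to -0.046, all below 0 as in the main fit, and none passed. The scaling factors were 0.632 for the vector library and 1.28 and 1.23 for KLF2 replicates 1 and 2. Unadjusted p was under 0.05 for none of the 6 by edgeR, and DESeq2 called none of the 4 to which it gave an adjusted p.

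Within the KLF2 tumours, the clusters without hepatocyte markers differed in Ass1, Asl, Arg1 and Odc1. Ass1 was highest in KLF2 replicate 1 in the cluster led by Ibsp, Serpinf1 and Slpi (88.5 CPM, 920 cells), which held 12.9 CPM in KLF2 replicate 2 (465 cells). The cluster led by Defa21 and Defa22, with hair keratin genes such as Krt84 and Krt36 among its leading genes, held 80.1 and 59.7 CPM, and the one led by Ldhb and Igfbp2 held 66.9 and 36.0 CPM. Of the 8 such clusters with at least 50 cells in both KLF2 libraries, replicate 1 exceeded replicate 2 in Ass1 by more than 1.5-fold in 6 and by less in the other two.

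Odc1 was highest in the Ldhb- and Igfbp2-led cluster, with 131 and 82.1 CPM. Asl was highest in the cholangiocyte-like cluster led by Krt18, Krt8 and Ly6d, with 51.4 and 42.2 CPM. In KLF2 replicate 1 the same cluster held 61.1 CPM of Arg1 (22.3 CPM in replicate 2). Arg1 was highest in the Mdga2-led cluster in KLF2 replicate 1, at 74.3 CPM (12.7 CPM in replicate 2). In KLF2 replicate 2 it was highest in the Defa21-led cluster, at 72.3 CPM (18.5 CPM in replicate 1). Otc did not exceed 0.3 CPM in any of these clusters. The order of clusters by Ass1 and by Arg1 was not the same in both KLF2 libraries.

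**Figure D4:**
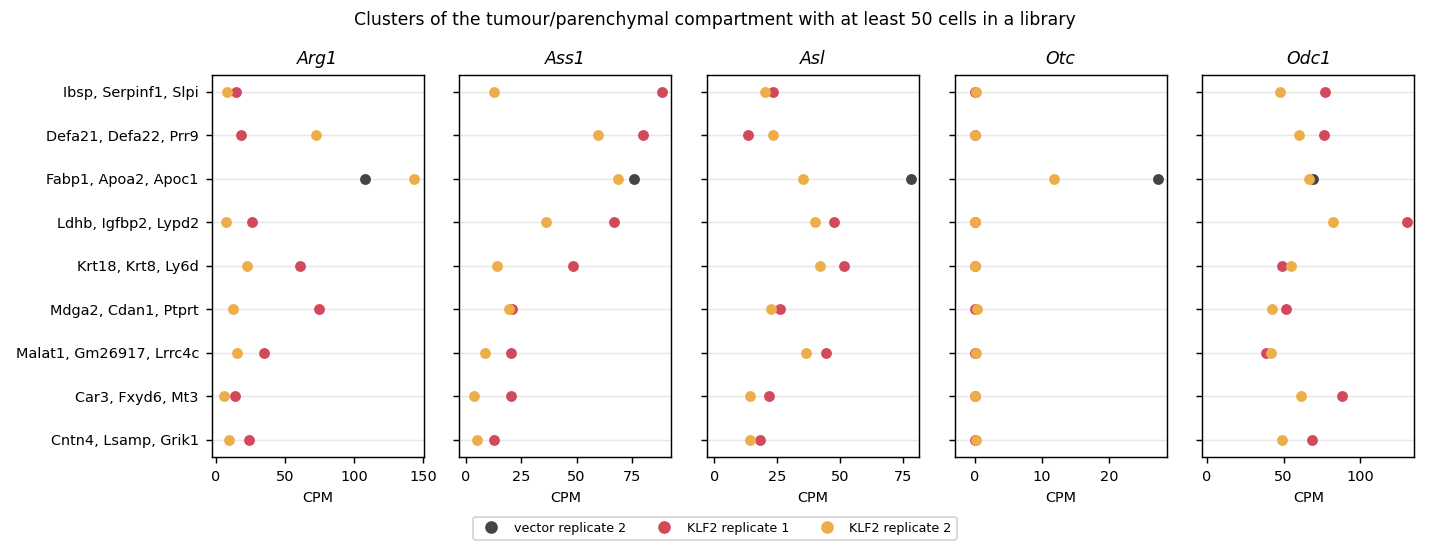
CPM of Arg1, Ass1, Asl, Otc and Odc1 in each cluster of the tumour/parenchymal compartment with at least 50 cells in a library, named by its 3 leading genes, coloured by library. The Fabp1-, Apoa2- and Apoc1-led hepatocyte-lineage cluster holds the only Otc above 0.3 CPM, while Ass1, Asl and Odc1 are found in clusters without hepatocyte markers.

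The change of the 9 genes differed between macrophage-like cells and the compartment. In an edgeR test of that difference within the same 3 libraries, 5 of the 9 genes were higher in the macrophages' KLF2 effect, with 11.2% of 15609 genes called (9.88% higher and 1.31% lower). Arg1 differed by 12.61 on the log2 scale (adjusted p = 7.61e-06), being higher in KLF2 macrophages and lower in the KLF2 compartments. The compartment is nearly all hepatocyte-lineage-like in the vector library and mostly other cells in the KLF2 libraries. Its part in these differences can therefore not be told apart from cell type. Slc7a2 differed by 5.31 (adjusted p = 0.00289), Asl by 2.09 (adjusted p = 0.00287) and Nos2 by 5.43 (adjusted p = 0.00467). With cells thinned to 1000 UMIs the Slc7a2 difference turned to -1.66 (adjusted p = 0.986) and that of Nos2 fell to 1.99 (adjusted p = 0.872); both passed in the other 6 of 7 alternatives. Otc differed by 7.02 (adjusted p = 0.0239), with 2, 0 and 3 UMIs in macrophage-like cells, and passed in 4 of 7 alternatives (adjusted p 0.00556 to 1).

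Promoter sequences, 250 bases before the RefSeq start site (GRCm38.p6), were matched by symbol for Ass1, Otc and Odc1, 3 of the 9 genes. They are shown as the promoters that were matched. Among the compartment's clusters with at least 50 cells in a library Otc exceeded 0.3 CPM only in the hepatocyte-lineage one, Ass1 varied between KLF2 libraries and Odc1 overlapped between groups. Capitals mark CACCC (or GGGTG on the other strand), the core that KLF factors recognise, and CACGTG, the E-box that MYC recognises. All are on the plus strand: Ass1 at chr2:31470020-31470269, Otc at chrX:10252055-10252304 and Odc1 at chr12:17544623-17544872.
Ass1: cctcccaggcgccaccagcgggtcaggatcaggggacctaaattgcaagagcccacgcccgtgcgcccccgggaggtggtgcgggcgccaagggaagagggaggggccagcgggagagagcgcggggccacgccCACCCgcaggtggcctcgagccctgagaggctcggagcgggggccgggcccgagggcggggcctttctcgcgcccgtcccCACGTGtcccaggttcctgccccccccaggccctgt
Otc: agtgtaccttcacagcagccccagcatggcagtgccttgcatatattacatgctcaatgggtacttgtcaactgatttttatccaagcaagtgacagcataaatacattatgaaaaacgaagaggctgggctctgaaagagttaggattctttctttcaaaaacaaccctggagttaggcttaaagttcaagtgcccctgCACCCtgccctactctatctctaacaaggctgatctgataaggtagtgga
Odc1: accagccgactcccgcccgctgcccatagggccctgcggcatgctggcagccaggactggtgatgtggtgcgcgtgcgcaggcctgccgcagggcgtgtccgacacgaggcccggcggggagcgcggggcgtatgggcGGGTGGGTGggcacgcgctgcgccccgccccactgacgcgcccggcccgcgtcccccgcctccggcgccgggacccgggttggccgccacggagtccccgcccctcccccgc
Both strands were searched. Ass1 held 1 CACGTG, ending 30 bases before the start site, and 1 CACCC. Otc held 1 CACCC and Odc1 held 2, neither with a CACGTG. Of 32851 mouse promoters of this length, 6.021% held a CACGTG and 52.01% a CACCC. An exact match to the HNF4 core CAAAGTNCA, a site of a hepatocyte factor, was in none of the 3 windows and in 1.193% of all. The Otc window holds TAAAGTTCA, which differs from that core in 1 letter and was not counted. The search therefore does not show that an HNF4 site is absent. The GC content was 75.6% in Ass1, 43.6% in Otc and 80.0% in Odc1, with a median of 52.4% over all promoters. A match describes the letters and shows no binding.

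In the genome (GRCm38, GENCODE M21) Arg1 (ENSMUSG00000019987.9) spans chr10:24915221-24927484 on the minus strand and Arg2 (ENSMUSG00000021125.6) chr12:79130777-79156301 on the plus strand. Nos2 (ENSMUSG00000020826.8) spans chr11:78920787-78960254 and Slc7a2 (ENSMUSG00000031596.15) chr8:40862396-40922308, both on the plus strand. Asl (ENSMUSG00000025533.15) spans chr5:130011258-130029247 on the minus strand and Cps1 (ENSMUSG00000025991.8) chr1:67123026-67231259 on the plus strand. Ass1 (ENSMUSG00000076441.9) spans chr2:31470207-31520672, Otc (ENSMUSG00000031173.13) chrX:10252305-10321024 and Odc1 (ENSMUSG00000011179.8) chr12:17544794-17551505, all on the plus strand. The promoter windows of Ass1 and Odc1, placed by the RefSeq start site, run past these GENCODE starts into the annotated genes. The CACGTG of Ass1 lies in that overlap.

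Partner genes of the pathways were read from 7 lists. Among urea cycle partners, 1 of 6 tested in macrophage-like cells rose: Glul, which makes glutamine from glutamate and ammonia, at 53.6 CPM in the vector library and 267 and 199 CPM in the KLF2 libraries (log2 fold change 1.91, adjusted p = 0.00499 by edgeR). T and NK cells also held more Glul in the KLF2 libraries, 169 and 101 CPM against 48.3 CPM. In the compartment 7 of 10 urea cycle partners were lower and none higher, where 10.6% of all genes were lower and 13.2% higher. The list median was -2.42, beside 0.64 over all genes. Nags, which makes the activator of CPS1, stood at 23.0 CPM against 0.160 and 0.122 CPM. Slc38a3, a glutamine transporter, stood at 19.0 CPM against 0.247 and 0.344 CPM, and Glud1, glutamate dehydrogenase, at 227 CPM against 68.9 and 58.8 CPM.

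For the other arginine transporters, edgeR called 0 of 4 in macrophage-like cells, none of the 4 had an unadjusted p under 0.05, and DESeq2 called 0 of 4. Slc3a2, the heavy chain of several transporters, stood at 115, 157 and 147 CPM, and Slc7a7, which exports arginine, at 16.5, 24.8 and 25.5 CPM. In the compartment 2 of 6 were higher, where 13.2% of all genes were: Slc7a1, the main arginine importer of many cells, at 6.76 CPM against 41.6 and 34.0 CPM (adjusted p = 0.0255), and Slc7a6, at 1.84 CPM against 14.6 and 14.0 CPM (adjusted p = 0.0251). The list median there was 1.19.

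Of the nitric oxide partners 1 of 8 was higher and 1 lower in macrophage-like cells, shares near the 10.8% higher and 6.1% lower of all genes. Ddah1, which breaks down inhibitors of nitric oxide synthases, stood at 2.75 CPM against 30.5 and 30.7 CPM (adjusted p = 0.00163 by edgeR), but T and NK cells held as much or more of it (4.42, 55.8 and 47.4 CPM). Nos3, the endothelial synthase, stood at 7.33 CPM against 1.86 and 0.508 CPM (adjusted p = 0.0464), and T and NK cells held 6.30, 1.64 and 0.624 CPM. Gch1, whose product makes the cofactor of nitric oxide synthases, did not pass in macrophage-like cells. In neutrophil-like cells it gave 0 UMIs in the vector library and 65.2 and 63.5 CPM in the KLF2 libraries (adjusted p = 0.0132). In the compartment 3 of 9 were lower, Nos3, Gch1 and Qdpr, beside 10.6% of all genes.

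Among 13 genes of polyamine synthesis and turnover, 1 rose in macrophage-like cells, no larger a share than the 10.8% of all genes. It was Smox, spermine oxidase, at 12.8 CPM against 48.8 and 40.9 CPM (log2 fold change 1.60, adjusted p = 0.0114 by edgeR), with 7.20, 13.1 and 23.1 CPM in T and NK cells. The list median was -0.015. In the compartment Smox and Dhps were higher and Paox lower. Of 8 genes that make proline and creatine from arginine, Pycr1, the last enzyme of proline synthesis, was the 1 that passed in macrophage-like cells, again near the share of all genes. It gave 0 UMIs in the vector library and 106 and 64.8 CPM in the KLF2 libraries, at least 60.1-fold higher (floor of 3 UMIs in the vector library). T and NK cells held 0.409, 204 and 85.5 CPM of Pycr1 and the compartment 4.61, 659 and 518 CPM, so the macrophage values were below those of T and NK cells of the same library.

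Neutrophil-like cells passed the test for 4 genes of the lists, all higher in KLF2 as were 6.24% of all genes: Gch1, Glul, Pycr1 and Chil3, a lectin gene of myeloid cells. Glul stood at 48.0 CPM against 195 and 271 CPM (adjusted p = 0.0472 by edgeR), and Pycr1 at 6.85 CPM against 310.5 and 298 CPM (adjusted p = 7.22e-06). T and NK cells also held more of both genes in the KLF2 libraries, and the compartment more Pycr1, as given above. In each KLF2 library the neutrophil value of Pycr1 lay between that of T and NK cells and that of the compartment. Chil3 gave 0 UMIs in the vector library, 567 CPM in KLF2 replicate 1 and 27.5 CPM in KLF2 replicate 2. No gene of polyamine turnover, arginine transport or inflammatory activation passed there: 0 of 9, 0 of 1 and 0 of 6 were called, none had an unadjusted p under 0.05, and DESeq2 called 0 of the 4, 1 and 5 to which it gave an adjusted p. Of the 4 genes called by edgeR, DESeq2 called Pycr1 alone. Oaz1, the antizyme that restrains ornithine decarboxylase, stood at 507 CPM against 663 and 660.2 CPM, and Eif5a at 233 CPM against 337 and 387 CPM. Il1b stood at 2618 CPM against 4891 and 4139 CPM (adjusted p = 0.744), and Acod1 at 219 CPM against 579 and 592 CPM (adjusted p = 0.287).

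Activation markers of macrophages did not move as 1 block. Of 9 tested genes of alternative activation, 3 rose and 3 fell, where 10.8% of all genes rose and 6.1% fell. Mrc1, the mannose receptor, stood at 44.4 CPM against 109.7 and 123 CPM, Cd163, the haemoglobin scavenger receptor, at 2.29 CPM against 17.4 and 18.8 CPM, and the chemokine gene Ccl24 at 3.67 CPM against 78.1 and 71.0 CPM. Clec10a, Ccl22 and Mgl2 fell, the first from 26.6 CPM to 4.39 and 6.35 CPM. Retnla, a classic partner of Arg1 in alternative activation, gave 3 UMIs in KLF2 replicate 1. The gene lists of vector replicate 2 and KLF2 replicate 2 do not hold it, so its counts there were taken as 0.

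Of 10 genes of inflammatory activation, 4 rose and 2 fell, beside the same 10.8% and 6.1%. Il1b, the interleukin-1β gene, stood at 92.6 CPM in the vector library and at 674 and 1380.5 CPM in the KLF2 libraries (log2 fold change 3.29, adjusted p = 0.0037 by edgeR). Il6, Ptgs2 and Socs3 rose as well. Cxcl9, an interferon-γ-induced chemokine gene, fell from 1189.5 CPM to 73.4 and 135 CPM (log2 fold change -3.69, adjusted p = 0.000519). Acod1, which makes itaconate, fell from 47.7 CPM to 28.7 and 26.3 CPM (adjusted p = 0.0327). The medians of the lists were 0.11 and 0.83, beside 0.15 over all genes. In macrophage-like cells DESeq2 did not call Mrc1, Mgl2, Il6, Acod1, Smox or Nos3.

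**Figure D5:**
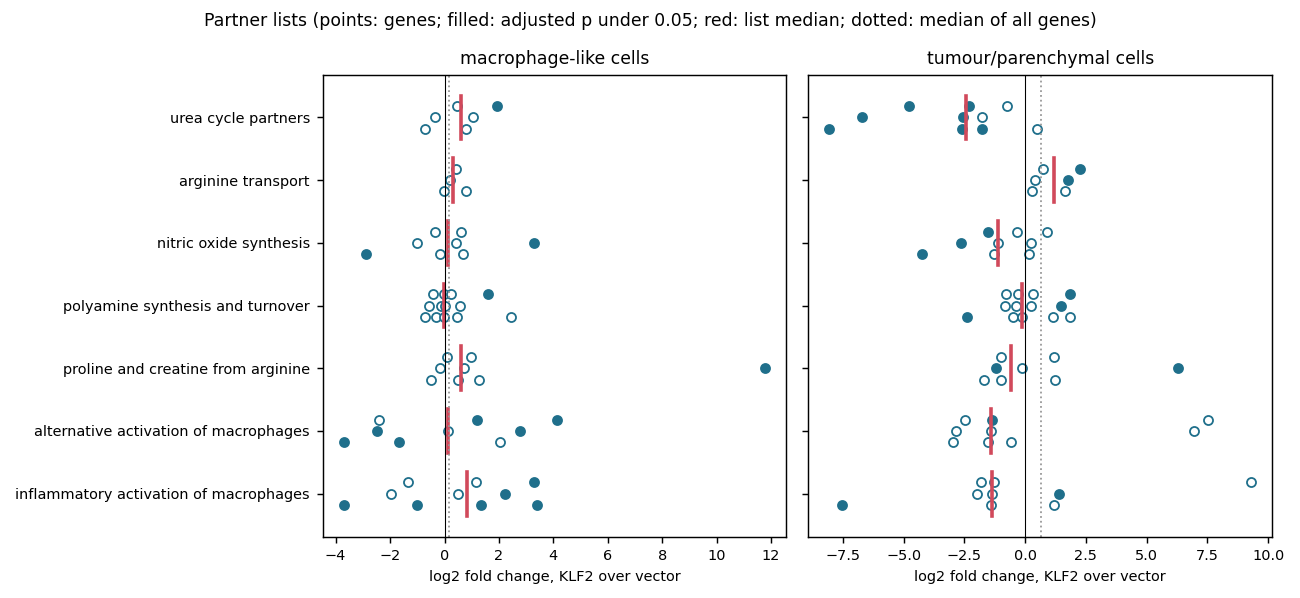
Log2 fold change, KLF2 over vector, of the tested genes of each partner list in macrophage-like cells and in the tumour/parenchymal compartment, by edgeR. Filled points passed an adjusted p of 0.05, red bars mark the list medians and the dotted line the median of all genes, 0.15 in macrophage-like cells and 0.64 in the compartment.

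The genes most like members of the 9 across 29 profiles of class and library were found by Pearson correlation of log2(CPM + 10) among 12553 genes. The profiles share libraries, and the values describe these profiles only. Arg1 was most like Atp6v0d2 (r = 0.876), a proton pump subunit of macrophages and osteoclasts, then Syngr1 and Grik3. Slc7a2 was most like Pla2g4a (r = 0.890), followed by Il6, and Nos2 like Tmem37 (r = 0.702), followed by Fabp5. Arg2 was most like Slc7a11 (r = 0.980), Hcar2 and Il1r2. Otc and Cps1 were most like the liver genes Serpina6 (r = 0.9753) and Mup11 (r = 0.927). Asl and Odc1 were most like Dbi (r = 0.821) and Inpp5b (r = 0.775).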

How the data were processed

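Tumour cells were captured in droplets (DNBelab C Series kit, per the labels' protocols). The values deposited by the authors are UMI counts per gene and barcode, not normalised; the matrices were written by PISA 1.0 per the file headers, and the build was GRCm38 per the submitters' processing notes. Aligner, annotation and cell calling: not given in the sources used here. The lowest barcode total was 522 UMIs in the vector library and 1000 in both KLF2 libraries, so barcodes were selected at different depths. The members and lists were chosen with earlier results of these data known.

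Cells under 300 genes or over 25% mitochondrial UMIs were dropped. Scrublet (scanpy 1.11.5) called 0 cells and was not used. Cells were clustered by Leiden (leidenalg 0.10.2, resolution 1.0, 2000 variable genes without the 9 genes, 30 components, 15 neighbours), myeloid clusters again within each library, and named from marker lists. The tumour/parenchymal compartment joins the clusters named for hepatocytes or cholangiocytes with unnamed ones under 100 CPM of Ptprc, without haemoglobin-led cells.

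Sums of UMIs per class were tested, where every library gave 50 cells, with edgeR 4.0.16 (quasi-likelihood, TMM, filterByExpr, Benjamini-Hochberg over all genes, threshold 0.05). With 1 vector library, the spread is that of the KLF2 libraries (1 residual degree of freedom, moderated over genes) and is taken to hold for vector. Differences between classes were tested as an interaction with library as a term. In simulated data, a 16-fold change was called in 100% and a 4-fold change in 74% of 100 genes in the macrophage-like fit. The simulation used 1 fixed spread for all genes and changed no gene of low mean count. Its shares therefore do not cover genes of few UMIs, such as Arg2, or with KLF2 libraries far apart, such as Arg1. CPM is relative to the UMIs of the class, intervals are exact (Poisson for counts, binomial for shares) and cover counting error only. Alternatives were DESeq2 1.42.0, other filters, resolutions, thinning, removal of cells with high doublet scores and leaving out libraries. All 9 genes are described in the 4 classes compared; of each list, up to 4 genes past the threshold by adjusted p were named, or 2 by level where none passed, and Klf2, Mrc1, Mgl2, Socs3, Acod1 and Retnla, outside that rule, were named after their values were seen. T and NK cells served as the background class. Not every closest partner by correlation is reported here.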

Additional observations from a re-analysis of the deposited data

Results flagged for a closer look

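The change from vector to KLF2 differed between macrophage-like cells and the tumour/parenchymal compartment for 5 genes, by the edgeR test of the difference itself with Benjamini-Hochberg adjustment over all genes. Arg1 differed by 12.61 on the log2 scale (adjusted p = 7.61e-06), from 4.58 CPM to 5349 and 1256 CPM in macrophages and from 107 CPM to 22.9 and 13.7 CPM in the compartment. Nos2 differed by 5.43 (adjusted p = 0.00467), Slc7a2 by 5.31 (adjusted p = 0.00289) and Asl by 2.09 (adjusted p = 0.00287). With cells thinned to 1000 UMIs, Slc7a2 turned to -1.66 (adjusted p = 0.986) and Nos2 fell to 1.99 (adjusted p = 0.872). Otc differed by 7.02 (adjusted p = 0.0239), with 2, 0 and 3 UMIs in the macrophages of the 3 libraries, and passed in 4 of 7 alternatives. The compartment is nearly all hepatocyte-lineage-like in the vector library and mostly other cells in the KLF2 libraries, so its part in these differences cannot be told apart from KLF2.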

How the results depend on the processing

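Arg1 in macrophage-like cells passed under all 11 alternatives with a test (log2 fold change 8.27 to 9.53), and Arg1, Asl, Cps1 and Otc in the compartment under all 11. Arg2 passed in 9 of 10, Slc7a2 in 10 of 11 and Ass1 in 7 of 11 in macrophage-like cells. Of member fold changes under an alternative, 453 kept direction and side of the threshold, 10 newly passed, 12 no longer passed, 15 moved and 17 reversed. Genes called in macrophage-like cells (2225) became 409 with cells thinned to 1000 UMIs, 812 with DESeq2 and 3441 without a filter; in all myeloid cells (2657) they became 1049, 1491 and 4571. In neutrophil-like cells (466) they became 119 thinned, 67 with DESeq2, 160 at 10% mitochondrial UMIs, 214 without high doublet scores and 181 without the highest Arg1 cells. In hepatocyte-lineage-like cells (294) they became 52 thinned, 35 with DESeq2 (27 higher and 8 lower, against 137 and 157) and 0 with the 9 genes kept for clustering. For the difference between macrophage-like and neutrophil-like cells (39) they became 10 thinned, 124 at 10% mitochondrial UMIs and 15 without high doublet scores, and for that with the compartment (1746) 822 thinned. Of the 9 genes, those higher in macrophage-like cells (3) became 1 when thinned, and those lower (1) became 0 when thinned, with DESeq2, at 500 genes and at resolution 0.5. The 1 called in neutrophil-like cells became 0 thinned, with DESeq2, at 10% mitochondrial UMIs and without the highest Arg1 cells. With 1 KLF2 library left out, fold changes ranged across 0 for Odc1 in macrophage-like (-0.24 without KLF2 replicate 2, 0.44 without replicate 1) and myeloid cells (-0.069, 0.52) and for Arg1 (0.17, -0.41), Ass1 (0.49, -0.95) and Cps1 (0.61, -3.91) in hepatocyte-lineage-like cells. Compartment Arg2 reversed without KLF2 replicate 1 (-0.11, against 0.41 without replicate 2) and at 10% mitochondrial UMIs (-0.45), and Slc7a2 when thinned (5.98; its difference to macrophages -1.66). The difference between macrophages and neutrophils reversed for Arg1 (0.49, thinned), Arg2 (-1.14 thinned, -8.22 at 10% mitochondrial UMIs), Asl (-0.11 at 500 genes, -0.15 at resolution 0.5, -8.98 at 10%), Ass1 (6.90 without high doublet scores) and Nos2 (-5.03 at 10%); none of these passed before or after. The cause was not tested, except that thinning and DESeq2 change the counts and genes tested. Thinned to 500 UMIs, the share of cells with Arg1 was 49.0% and 14.9% in KLF2 macrophages, 5.49% and 1.75% in hepatocyte-lineage-like cells of vector replicate 2 and KLF2 replicate 2, and 5.46%, 1.28% and 0.747% in the compartments, by construction of the lower depth.

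Leaving out a KLF2 library left no residual degrees of freedom and gave values with no test: Arg1 in macrophage-like cells was 7.85 without KLF2 replicate 1. No paired analysis was possible because only replicate number 2 has a matrix in both groups. In neutrophil-like cells a count of 0 allows up to 20.6, 11.5 and 6.35 CPM (3 UMIs) in the 3 libraries.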
